A study of Mus musculus with 11 samples.

Results

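Genes that mark mesenchymal and stellate cells were followed in whole mouse pancreas: Vim, Acta2, Pdgfrb, S100a4, Dcn, Bgn, Lum, Fn1, Sparc and Lox. Every probe set that the array's annotation assigns to one of these 10 symbols was taken, which gave 23 of the 45101 probe sets of the table, and 10 of its 18194 named genes. RNA came from the pancreas of 30-day-old female Balb/C mice, and each of the 11 arrays holds a separate biological replicate. In the low protein STZ group (3 arrays), dams ate an isocaloric diet with 8% protein through gestation and the offspring received streptozotocin (STZ) in citrate buffer, a toxin taken up by β cells, at 35 mg per kg daily on days 1 to 5 after birth. The low protein sham group (3 arrays) had the same dams' diet and vehicle injections, the control STZ group (2 arrays, replicates 1 and 3) had dams on 20% protein and STZ, and the control sham group (3 arrays) had dams on 20% protein and vehicle. From birth all dams ate the control diet. Litters are not given, so the p-values measure the spread between animals and cannot separate diet from litter. In the sham group of the control diet the arrays stood far apart for most of these genes.

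The pancreas is mostly acinar tissue, and its connective tissue is made by fibroblasts and by stellate cells, which lie along acini, ducts and vessels. Quiescent stellate cells store vitamin A; after injury they become myofibroblast-like, express smooth muscle actin and lay down matrix. Of the genes followed here, Vim encodes vimentin, the intermediate filament of mesenchymal cells, Acta2 encodes α-smooth muscle actin, and Pdgfrb encodes the PDGF receptor β of pericytes and fibroblasts. S100a4, also called fibroblast-specific protein, encodes a small calcium-binding protein that leukocytes express too. Dcn (decorin), Bgn (biglycan) and Lum (lumican) are small leucine-rich proteoglycans that bind collagen fibrils. Fn1 (fibronectin) and Sparc (osteonectin) are matrix glycoproteins, and Lox (lysyl oxidase) cross-links collagen and elastin. Vimentin is also made by endothelial cells and leukocytes, and no gene of this set is exclusive to stellate cells.

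Vim, Bgn and Sparc were lower in low protein than control sham arrays on more than 1 probe set (unadjusted limma p under 0.05). None of these probe sets passed after adjustment. Of all 34958 probe sets tested, 3204 were under that unadjusted p, in either direction. The third Sparc probe set stood at 0.07 ± 0.10. Probe sets of a gene read the same arrays and are not separate evidence. The upstream sequences of Vim, Bgn and Sparc, picked by these values, are shown. They are the 250 bases before the annotated transcript start, from RefSeq on GRCm38.p6: chr2:13574061-13574310 on the plus strand for Vim, chrX:73483351-73483600 on the plus strand for Bgn and chr11:55420081-55420330 on the minus strand for Sparc. Capitals mark matches, on either strand, to 4 motifs: the TATA box, spelled TATAAA; the CCAAT box, spelled as its name; the GC box, spelled GGGCGG; and 1 form of the E-box, spelled CAGCTG. A match on the other strand appears as its reverse complement, and each sequence is written 5′ to 3′ along the gene.
Vim: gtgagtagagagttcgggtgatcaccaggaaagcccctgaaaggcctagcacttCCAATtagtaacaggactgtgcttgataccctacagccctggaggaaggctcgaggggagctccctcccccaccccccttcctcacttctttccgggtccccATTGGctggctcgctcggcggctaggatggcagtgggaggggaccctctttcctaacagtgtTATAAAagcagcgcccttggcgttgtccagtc
Bgn: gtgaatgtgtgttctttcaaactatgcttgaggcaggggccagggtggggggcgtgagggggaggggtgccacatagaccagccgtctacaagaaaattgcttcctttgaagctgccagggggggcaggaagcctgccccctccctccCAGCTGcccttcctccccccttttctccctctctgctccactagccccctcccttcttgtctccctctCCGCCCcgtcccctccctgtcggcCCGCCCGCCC
Sparc: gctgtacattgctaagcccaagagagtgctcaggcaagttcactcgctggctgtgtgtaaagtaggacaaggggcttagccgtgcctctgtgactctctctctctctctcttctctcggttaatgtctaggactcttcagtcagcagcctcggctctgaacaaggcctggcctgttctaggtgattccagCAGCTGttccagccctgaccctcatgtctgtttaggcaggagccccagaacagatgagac
The Vim window held a TATA box 32 to 27 bases before the start and a CCAAT box on each strand. The Bgn window held no TATA box; it held 3 GC boxes within 34 bases of the start, of which the last 2 share bases, and 1 E-box. The Sparc window held 1 E-box 60 to 55 bases before the start and none of the other 3 motifs. The same windows of all 32851 annotated starts held TATAAA in 12.4%, CCAAT in 33.8%, GGGCGG in 32.7% and CAGCTG in 13.0%. A match describes letters and not a bound site. Of the 10 genes, 5 had a window in the table used.

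The values are log2 signals per probe set, on which a difference of 1 is a doubling. Array medians lay between 7.92 and 7.97. Low protein STZ 1 and control sham 1 lay at the ends of principal component 1, which held 38.4% of the variance, and control sham 2 stood apart on the second (13.7%). The 7 acinar markers with a probe set averaged 13.75 to 14.68 on the 11 arrays, and 7 β cell markers averaged 8.81 to 9.0 in low protein STZ, 8.82 to 9.44 in low protein sham, 8.87 to 8.90 in control STZ and 9.78 to 10.25 in control sham arrays. Added hybridisation controls (18 bacterial and phage probe sets, a measure of hybridisation and not of the tissue) averaged 10.88 to 11.40 in low protein STZ, 11.20 to 11.50 in low protein sham, 11.56 to 11.81 in control STZ and 11.34 to 11.89 in control sham arrays. Where a gene has several probe sets, the one of highest mean stands for it, and genes with a mean over 6.866 were tested, which all 10 passed. Signals of different probe sets are not on a common scale, so levels are compared within a probe set.

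Vim had the widest span of the 10 genes, 1.62 between its lowest and highest array. It read 9.65, 10.04 and 10.0 in low protein STZ arrays, 10.19, 9.66 and 9.44 in low protein sham, 9.96 and 10.17 in control STZ, and 10.08, 10.94 and 11.05 in control sham arrays. Control sham 2 and 3 lay above the other 9 arrays, while control sham 1 lay within the range of the low protein sham arrays. The other 2 Vim probe sets had the same arrays on top: the third read 8.00, 8.43 and 8.42 in low protein STZ, 8.44, 7.91 and 7.86 in low protein sham, 8.43 and 8.42 in control STZ, and 8.33, 9.20 and 9.78 in control sham arrays. Acta2 covered only 0.44 in all, with means of 9.51 ± 0.10 (SD, n = 3) in low protein STZ, 9.44 ± 0.07 (n = 3) in low protein sham, 9.38 ± 0.20 (n = 2) in control STZ and 9.48 ± 0.19 (n = 3) in control sham arrays. Its sham arrays read 9.48, 9.49 and 9.37 under the low protein diet and 9.29, 9.67 and 9.49 under the control diet, and the groups overlapped. Its probe set carries the suffix for probes shared between transcripts, and the other 2 Acta2 probe sets were dim, with means of 5.97 and 6.05. Pdgfrb covered 0.29, with means of 8.13 ± 0.15 (n = 3), 8.14 ± 0.12 (n = 3), 8.22 ± 0.04 (n = 2) and 8.07 ± 0.10 (n = 3) in low protein STZ, low protein sham, control STZ and control sham arrays.

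**Figure D1:**
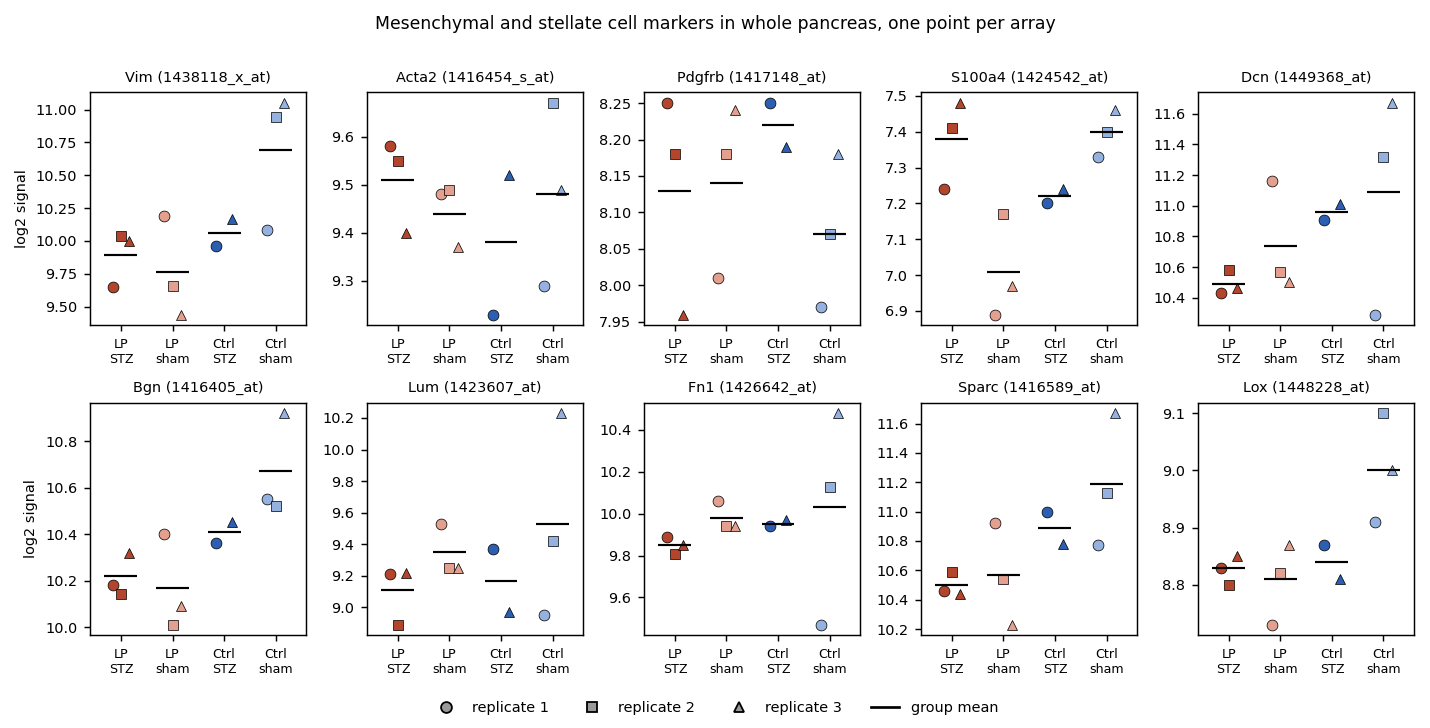
Log2 signal of the kept probe set of each of the 10 genes, one panel a gene, with groups from left to right as low protein (LP) STZ, low protein sham, control (Ctrl) STZ and control sham; points are arrays, their shape gives the replicate number and bars are group means. Vertical axes differ between panels and do not start at 0. For Vim, Dcn, Fn1 and Sparc, control sham 2 and 3 are the highest points; for Dcn, Fn1 and Lum, control sham 1 is at or near the bottom.

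S100a4 had its own order of arrays. It read 7.24, 7.41 and 7.48 in low protein STZ, 6.89, 7.17 and 6.97 in low protein sham, 7.20 and 7.24 in control STZ, and 7.33, 7.40 and 7.46 in control sham arrays. The 3 low protein sham arrays were the 3 lowest of the 11, and the 3 control sham arrays spanned only 7.33 to 7.46. This gene has a single probe set, of mean 7.25, and its value in low protein sham 1 was close to the limit of 6.866 set for gene means. Myeloid markers, 12 genes with a probe set of 13 listed, averaged 8.49 to 8.52 in low protein STZ, 8.46 to 8.51 in low protein sham, 8.48 to 8.61 in control STZ and 8.32 to 8.74 in control sham arrays. Within that list Tyrobp, a signalling adaptor of myeloid cells, shared with S100a4 the order of STZ and sham arrays within each diet. Its STZ arrays were all above sham arrays in the low protein diet (0.15 ± 0.07, adjusted p = 1). They were all below sham arrays in the control diet (-0.12 ± 0.08, adjusted p = 0.999). The order of the 4 groups differed: the lowest mean was in low protein sham arrays for S100a4 and in control STZ arrays for Tyrobp. Tyrobp averaged 8.913 in low protein sham and 8.911 in control sham arrays. The difference of STZ effects for Tyrobp was 0.27 ± 0.10 (unadjusted p = 0.025, limma adjusted p = 1). The list as a whole had no common direction: of 11 tested myeloid markers, 6 were higher and 5 lower for that difference (median 0.06). In low protein STZ against low protein sham arrays 6 were also higher and 5 lower (median 0.02). The part of myeloid cells in the S100a4 values was not tested.

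The proteoglycans Dcn and Lum were set apart from Bgn by the array control sham 1. Dcn read 10.43, 10.58 and 10.46 in low protein STZ, 11.16, 10.57 and 10.50 in low protein sham, 10.91 and 11.01 in control STZ, and 10.29, 11.32 and 11.67 in control sham arrays. The lowest and the highest Dcn values of the series thus came from one group, control sham. Bgn read 10.18, 10.14 and 10.32 in low protein STZ, 10.40, 10.01 and 10.09 in low protein sham, 10.36 and 10.45 in control STZ, and 10.55, 10.52 and 10.92 in control sham arrays. Every control sham array lay above the other 8 on this Bgn probe set. On both other Bgn probe sets control sham 1 (8.90 and 7.74) lay below control STZ 3 (9.02 and 7.78). Lum averaged 9.11 ± 0.19 (n = 3) in low protein STZ, 9.35 ± 0.16 (n = 3) in low protein sham, 9.17 ± 0.28 (n = 2) in control STZ and 9.53 ± 0.65 (n = 3) in control sham arrays, the last with values of 8.95, 9.42 and 10.23. The second Dcn probe set, of mean 7.98, covered only 0.29 and did not repeat the pattern of the first, whereas both other Bgn probe sets had control sham 3 as their highest array.

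Among the glycoproteins, Sparc read 10.46, 10.59 and 10.44 in low protein STZ, 10.92, 10.54 and 10.23 in low protein sham, 11 and 10.78 in control STZ, and 10.77, 11.13 and 11.67 in control sham arrays. All low protein STZ arrays lay below all arrays of the control diet, and the low protein sham arrays overlapped them through replicate 1. Fn1 was even in 3 groups, with low protein STZ arrays at 9.85 ± 0.04 (n = 3), low protein sham arrays at 9.98 ± 0.07 (n = 3) and control STZ arrays at 9.95 ± 0.02 (n = 2), and uneven in control sham arrays, which read 9.47, 10.13 and 10.48. Lox read 8.83, 8.80 and 8.85 in low protein STZ, 8.73, 8.82 and 8.87 in low protein sham, 8.87 and 8.81 in control STZ, and 8.91, 9.10 and 9.0 in control sham arrays. All 3 control sham arrays were above the other 8, by amounts that are small on this scale. On the second Lox probe set control sham 1 (8.29) was not above control STZ 3 (8.30).

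Seen by array, control sham 3 was above the 11-array mean for 10 of 10 genes and was the highest array for 6 of them. The average deviation of the 10 genes was 0.51 in control sham 3, 0.27 in control sham 2 and -0.14 in control sham 1, a spread within a group wider than that between any of the other 8 arrays, which lay between -0.21 and 0.03. Low protein sham 3 had the lowest average deviation, with 1 gene above its own mean. The arrays with the highest marker averages, control sham 3 and control sham 2, had hybridisation controls of 11.89 and 11.76, and control sham 1 had 11.34. A sign of RNA quality, the 3′ minus 5′ log2 signal of Actb and Gapdh, was 1.80 in control sham 3, 1.83 in control sham 2 and 1.5 in control sham 1, and lay between 1.40 and 1.91 in low protein STZ, 1.22 and 1.64 in low protein sham and 1.08 and 1.93 in control STZ arrays. Control STZ 3 had controls of 11.81 with a marker average of 0.01.

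**Figure D2:**
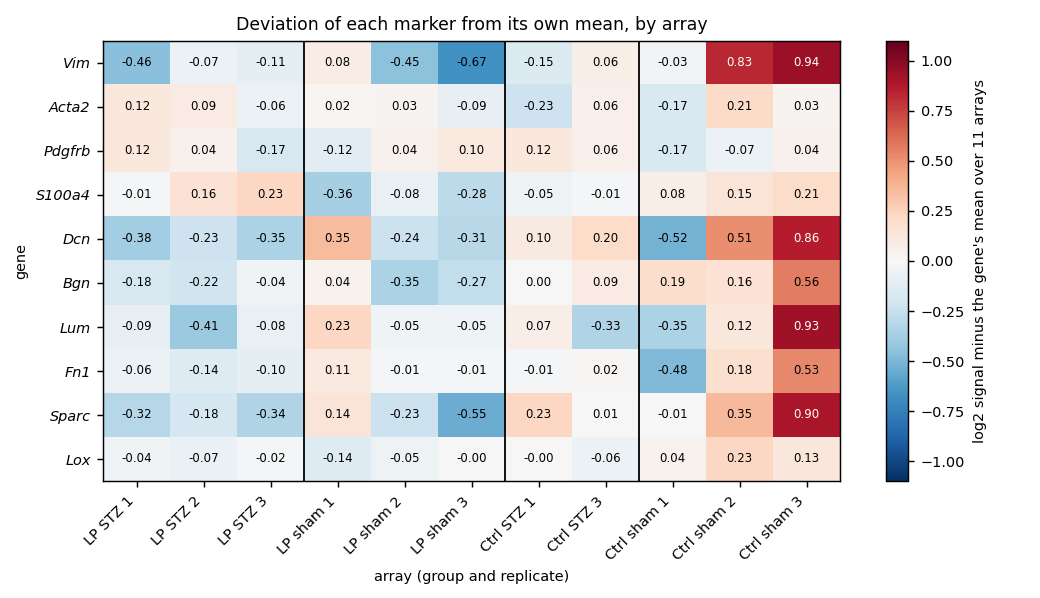
Log2 signal of each gene (rows) on each array (columns) minus that gene's mean over the 11 arrays, printed in the cells; red is above the mean and blue below it, and vertical lines part the groups. Control sham 3 is above the mean in every row, with 0.94 for Vim, 0.93 for Lum and 0.90 for Sparc, while Acta2 runs from -0.23 to 0.21 and Pdgfrb from -0.18 to 0.12.

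**Figure D3:**
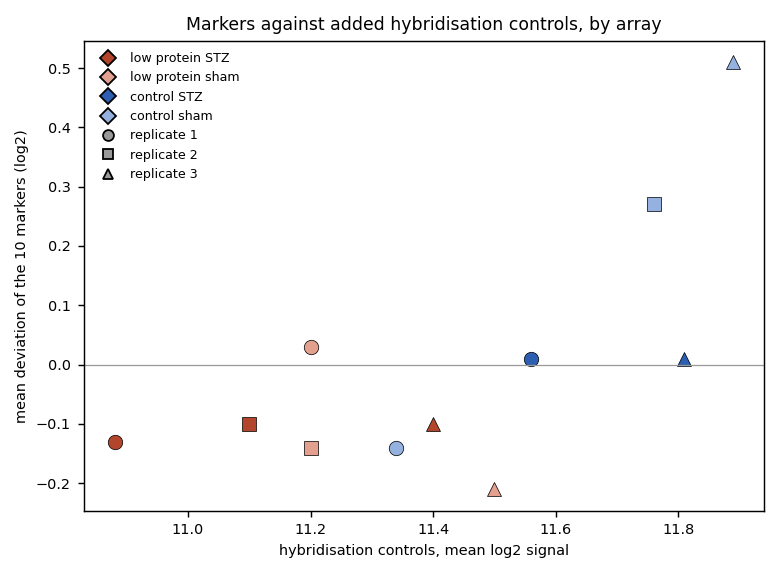
Mean deviation of the 10 genes from their own means (vertical axis, log2) against the mean log2 signal of the 18 hybridisation control probe sets (horizontal axis), one point an array, colours for groups and shapes for replicate numbers. Control sham 2 and 3 are at the upper right, and the other 9 arrays lie between -0.21 and 0.03 over nearly the whole range of the controls.

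Some of the genes followed this array pattern and others did not. Across the 11 arrays, Pearson's r of a gene with the mean of the other 9 was 0.911 for Sparc, 0.896 for Dcn, 0.887 for Vim, 0.793 for Bgn, 0.780 for Fn1 and 0.742 for Lum. It was 0.610 for Lox, 0.296 for S100a4, 0.277 for Acta2 and -0.073 for Pdgfrb. Spearman's rho was 0.818 for Sparc and Dcn, 0.691 for Vim, 0.573 for Bgn, 0.606 for Fn1, 0.442 for Lum and 0.082 for Lox. Without control sham 2 and 3, the arrays farthest from the median, r over the remaining 9 was 0.752 for Dcn, 0.732 for Sparc and 0.566 for Vim, but 0.372 for Bgn, 0.243 for Fn1, 0.058 for Lum and -0.587 for Lox. Those 2 arrays were picked for their extreme marker averages, so leaving them out narrows the range compared and tends to lower r. The lower r of Bgn, Fn1, Lum and Lox thus cannot decide whether their shared pattern rests on those 2 arrays. Over all 11 arrays with each group's mean removed, r was 0.949 for Fn1, 0.806 for Lum, 0.63 for Bgn and 0.192 for Lox. Arrays share the processing and the tissue mixture, and these coefficients are descriptions without a test.

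Outside the 10 genes, the 5 with the highest r to their mean were Serping1 (0.970), Fstl1 (0.962), Cd34 (0.95), Dpt (0.938) and Anxa2 (0.937). Serping1 encodes the C1 inhibitor, Fstl1 a secreted glycoprotein of mesenchymal cells, Cd34 a sialomucin of endothelial and some stromal cells, Dpt the matrix protein dermatopontin, and Anxa2 a calcium-dependent membrane-binding protein. With each group's mean removed, r was 0.956, 0.929, 0.927, 0.948 and 0.897 in the same order. Without control sham 2 and 3 it was 0.805 for Serping1, 0.764 for Fstl1, 0.718 for Dpt, 0.528 for Cd34 and 0.463 for Anxa2. Dpt, for example, read 9.82 in control sham 1, against 11.01 and 11.28 in control sham 2 and 3.

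The contrast of low protein sham with control sham asks what protein restriction before birth left in the pancreas of vehicle-injected offspring. Of the 10 genes, 9 had lower means in low protein sham arrays, with a median log2 difference of -0.27, while the median over all 15897 genes tested was -0.02 and 57.7% of genes lay below 0. Vim differed by -0.93 ± 0.25 (SE), 1.90-fold lower, Sparc by -0.62 ± 0.22, Bgn by -0.50 ± 0.13, S100a4 by -0.39 ± 0.09 and Lox by -0.20 ± 0.07. None of the 10 genes passed an adjusted p of 0.05 in limma; 0 of all 15897 genes did (0%), against 1655 (10.4%) at an unadjusted p under 0.05. The count over all genes was 0 to 126 when 1 array was left out, with 126 without low protein STZ 1, 8 without control sham 3, 3 without control sham 2 and 1 without control sham 1, and no gene of the 10 passed in those fits. Low protein STZ 1 is in neither group of this contrast, so leaving it out changed only the shared estimate of the spread and not the differences. In the fit of all 11 arrays the adjusted p was 0.209 for S100a4 and Bgn, 0.224 for Vim, 0.334 for Sparc and 0.354 for Lox. These 5 genes were under an unadjusted p of 0.05, all lower, where 7.22% of all genes were under it and lower. For S100a4, Bgn and Lox all low protein sham arrays lay below all control sham arrays, as in 10.2% of all genes. This order is that of the probe set that stands for each gene. On the second Bgn probe set low protein sham 1 (8.94) lay above control sham 1 (8.90), while the third kept the order. On the second Lox probe set low protein sham 2 and control sham 1 both read 8.29.

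The remaining genes had wide or small differences in the same contrast. Dcn differed by -0.35 ± 0.29 and Lum by -0.18 ± 0.26, with 95% intervals of -0.99 to 0.30 and -0.76 to 0.40. Fn1 differed by -0.05 ± 0.19, Acta2 by -0.04 ± 0.11 and Pdgfrb by 0.07 ± 0.10. For Acta2 the 95% interval ran from -0.28 to 0.21 and for Pdgfrb from -0.14 to 0.28. The interval of Vim, -1.49 to -0.36, lay below 0. In these bulk samples fewer mesenchymal cells and less RNA per cell cannot be told apart.

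The sizes of these differences depended on single arrays of both groups. Without control sham 1 the median of the 10 genes was -0.45, Vim was -1.23, Dcn was -0.75 and Sparc was -0.83. Without control sham 3 the median was -0.13, Vim was -0.75, Dcn was -0.06, Sparc was -0.38, and Lum and Fn1 turned to 0.17 and 0.18. Without low protein sham 1 Vim was -1.14, Sparc -0.80, Dcn -0.55, Bgn -0.62 and S100a4 -0.33, and without low protein sham 2 S100a4 was -0.47. Bgn ranged from -0.62 to -0.37 and S100a4 from -0.47 to -0.33 over the 11 fits that left out an array, with no change of sign. Over all alternatives the adjusted p of limma ran from 0.0453 to 0.655 for Vim, 0.0651 to 0.601 for S100a4, 0.0641 to 0.601 for Bgn, 0.0737 to 0.714 for Sparc and 0.224 to 0.760 for Lox. Vim passed, at 0.0453, when both ends of the first principal component were left out, low protein STZ 1 and control sham 1. With the hybridisation controls as a covariate the median was -0.08 and Vim was -0.64 ± 0.29, S100a4 was -0.31 ± 0.11 and Bgn was -0.40 ± 0.15. With the 3′ minus 5′ signal as a covariate Vim was -0.74 ± 0.23, Sparc -0.54 ± 0.23, Bgn -0.47 ± 0.14, S100a4 -0.38 ± 0.10 and Dcn -0.17 ± 0.29.

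**Figure D4:**
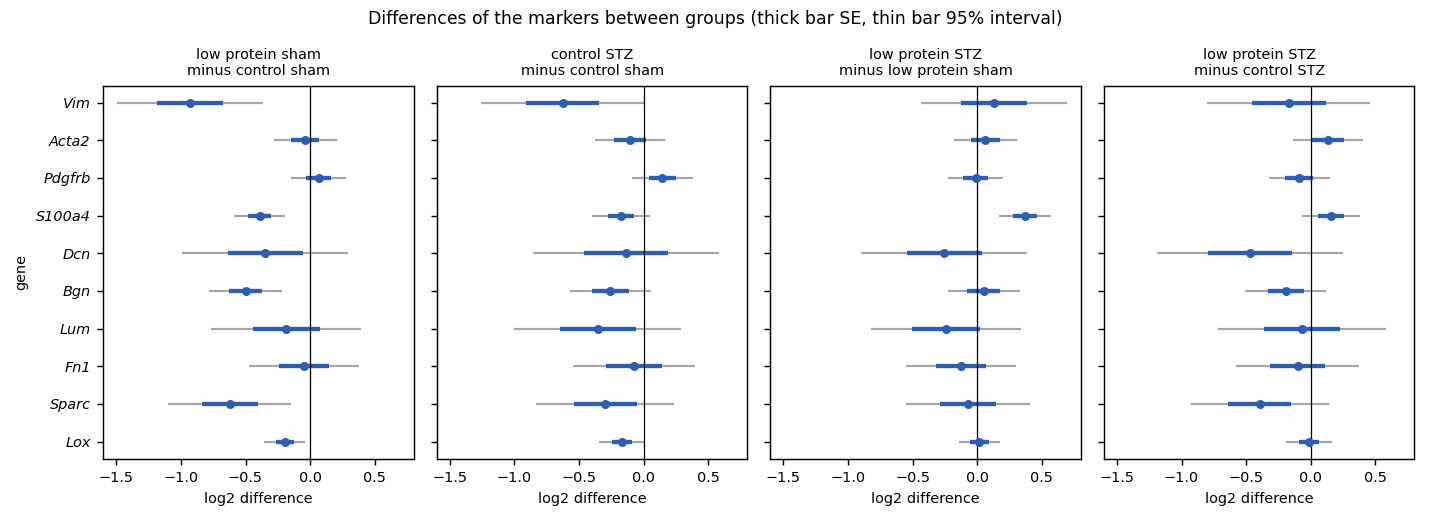
Log2 difference of each gene in 4 contrasts, with the first-named group minus the second, so values left of 0 are lower in the first-named group; thick bars are SE and thin bars 95% intervals of the limma fit. In low protein sham minus control sham, the intervals of Vim, S100a4, Bgn, Sparc and Lox lie below 0, and in low protein STZ minus low protein sham that of S100a4 lies above 0; none of these passed adjusted over all genes.

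Probe sets of a gene differed in how far they repeated its difference. All 3 Vim probe sets were lower in low protein sham arrays, at -0.93 ± 0.26, -0.53 ± 0.21 and -1.03 ± 0.30. The first, which stands for the gene, carries the suffix for probes that may match other sequences, and the one at -0.53 does not. All 3 Bgn probe sets were lower too, at -0.50 ± 0.13, -0.30 ± 0.11 and -0.16 ± 0.07. For Sparc, 2 probe sets were at -0.62 ± 0.22 and -0.57 ± 0.21, and the third, a bright one of mean 9.30, was at 0.07 ± 0.10. The second Lox probe set was at -0.09 ± 0.07, and the second Dcn probe set was at 0.13 ± 0.07, against the sign of the first. Of the 23 probe sets, 17 were lower and 9 were under an unadjusted p of 0.05, and 0 passed over the 34958 probe sets tested, where 3204 were under an unadjusted p of 0.05. Of the 18 probe sets over the limit for dim genes, 15 were lower. By gene, 57.7% of the 15897 tested were below 0 in this contrast. The 9 probe sets belong to Vim, Bgn, Sparc, S100a4 and Lox, the genes already under that p, and are not 9 separate results.

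**Figure D5:**
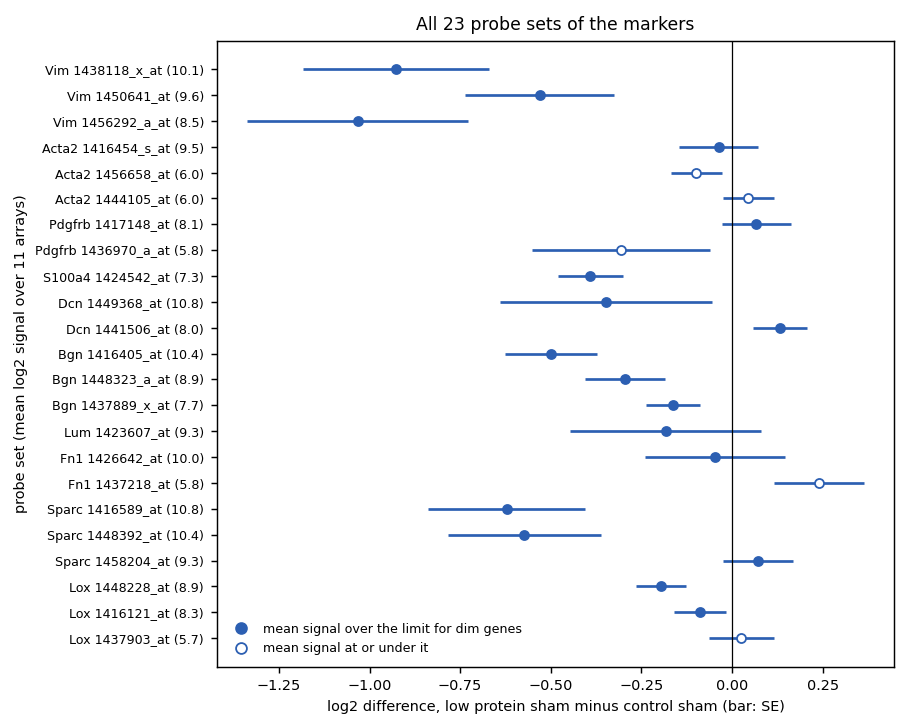
Log2 difference of low protein sham minus control sham for each of the 23 probe sets, with SE bars; labels give the gene, the probe set and its mean log2 signal, and open points are at or under the limit for dim genes (6.866). The 3 Vim and 3 Bgn probe sets lie left of 0, while the dimmer Dcn and the third Sparc probe set lie right of it.

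The next contrast sets STZ against vehicle under the control diet, at 30 days of age. It uses the same control sham arrays as the diet contrast, so the values are given side by side and not as separate evidence. Again 9 of 10 genes had lower means in the STZ arrays, with a median difference of -0.17, against 0.00 over all genes and 49.3% of genes below 0. Vim differed by -0.63 ± 0.28, Lum by -0.36 ± 0.29, Sparc by -0.30 ± 0.24, Bgn by -0.26 ± 0.14, S100a4 by -0.18 ± 0.10 and Lox by -0.17 ± 0.08. Dcn differed by -0.13 ± 0.33, Acta2 by -0.11 ± 0.12, Fn1 by -0.07 ± 0.21 and Pdgfrb by 0.15 ± 0.11. None passed (adjusted p = 0.999 each, 0% of all genes passing in limma), and 0 of the 10 were under an unadjusted p of 0.05, where 4.05% of genes (644) were. For control diet offspring, the pair of STZ arrays was under each sham array for Bgn, S100a4 and Lox (7.72% of all genes) and above them for Pdgfrb (8.64%). This too is the order on the probe set that stands for each gene, and the other Bgn, Lox and Pdgfrb probe sets overlapped. Without control sham 1 Vim was -0.93 and the median -0.33; without control sham 3 Vim was -0.45, the median -0.08, and Dcn and Fn1 turned to 0.15 each.

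In offspring of protein-restricted dams, the 10 genes had no common direction after STZ. In the STZ arrays 5 were higher and 5 lower than in sham arrays, with a median of 0.00. S100a4 was the gene under an unadjusted p of 0.05, at 0.37 ± 0.09 (1.29-fold higher; unadjusted p = 0.00193, adjusted p = 1), with all STZ arrays above all sham arrays. At an unadjusted p under 0.05, 0.679% of genes were higher, and in 2.60% the STZ arrays lay above all sham arrays. Lum (-0.24 ± 0.26) and Fn1 (-0.13 ± 0.19) had all STZ arrays below all sham arrays, as did 5.14% of genes. Vim differed by 0.13 ± 0.25, Dcn by -0.26 ± 0.29, Bgn by 0.05 ± 0.13, Sparc by -0.07 ± 0.22, Acta2 by 0.06 ± 0.11, Lox by 0.02 ± 0.07 and Pdgfrb by -0.01 ± 0.10. No gene of the table passed here in limma (0%), with 412 (2.59%) under an unadjusted p of 0.05, and 57.6% of genes were below 0.

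The effect of STZ in low protein offspring minus its effect in control offspring gives a test of interaction between diet and injection. S100a4 had the smallest p of the 10 genes, 0.55 ± 0.14 (unadjusted p = 0.00214, adjusted p = 1). Its STZ arrays were all above sham in the low protein diet and all below sham in the control diet, an order shared by 52 of 15897 genes (0.327%). Vim differed by 0.76 ± 0.38 (adjusted p = 1), Bgn by 0.31 ± 0.19, Sparc by 0.23 ± 0.32, Lox by 0.18 ± 0.11, Acta2 by 0.17 ± 0.16 and Lum by 0.12 ± 0.39. Pdgfrb (-0.16 ± 0.14), Dcn (-0.12 ± 0.44) and Fn1 (-0.05 ± 0.29) were on the other side of 0. No gene of the table passed in limma (0%), and 3.56% were under an unadjusted p of 0.05, with 1.35% under it and above 0; 55.0% of genes lay below 0.

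After STZ, low protein and control arrays were compared in the same way. Of the 10 genes, 8 had lower means in low protein STZ arrays, with a median of -0.09, where 62.3% of all genes were below 0 and the median was -0.04. Dcn differed by -0.47 ± 0.33 and Sparc by -0.40 ± 0.24, and with Bgn (-0.19 ± 0.14) and Fn1 (-0.10 ± 0.21) these genes had all low protein STZ arrays below both control STZ arrays. On the probe sets that stand for a gene, that was so for 16.8% of all genes. Vim differed by -0.17 ± 0.29, Pdgfrb by -0.09 ± 0.11, Lum by -0.07 ± 0.29, Lox by -0.01 ± 0.08, Acta2 by 0.13 ± 0.12 and S100a4 by 0.16 ± 0.10. None of the 10 was under an unadjusted p of 0.05 (9.49% of all genes, 1509, were) and none of all genes passed in limma (0%). With the hybridisation controls as a covariate the median of the 10 turned to 0.13.

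Other genes of the stroma give the setting. In low protein sham against control sham arrays, 21 of 25 tested stellate and fibroblast genes were lower (median -0.06), 3 of them under an unadjusted p of 0.05 and 0 passing, where 57.7% of all genes were below 0 and 7.22% were under that p and lower. They were Igfbp4, an IGF-binding protein, at -0.67 ± 0.17 (limma adjusted p = 0.209), Ddr2, a collagen receptor, at -0.16 ± 0.06 (adjusted p = 0.394) and Serping1 at -0.41 ± 0.18 (adjusted p = 0.476). Of 17 tested smooth muscle and pericyte genes, 9 were lower and 8 higher (median -0.01). Cald1, the actin-binding caldesmon, stood at -0.72 ± 0.13 (adjusted p = 0.206) and Rgs5, a pericyte regulator of G-protein signalling, at -0.61 ± 0.15 (adjusted p = 0.209), while Des, the intermediate filament desmin of muscle and stellate cells, stood at 0.22 ± 0.10 (adjusted p = 0.487). Vimentin and desmin, both filament proteins of stellate cells, thus had differences of opposite sign, neither passing.

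Genes of matrix processing were lower in 20 of 22 cases (median -0.10), with 3 under an unadjusted p of 0.05 and 0 passing, against the same 57.7% and 7.22% of all genes. Timp3, an inhibitor of metalloproteinases bound to matrix, stood at -0.46 ± 0.15 (adjusted p = 0.285), Plod2, a lysyl hydroxylase of collagen, at -0.23 ± 0.08 (adjusted p = 0.349) and P4ha2, a prolyl hydroxylase subunit, at -0.25 ± 0.09 (adjusted p = 0.376). Other proteoglycans and matrix glycoproteins were lower in 20 of 31 (median -0.05), with Tnc, tenascin C, at 0.16 ± 0.08, Matn2, a matrilin, at -0.50 ± 0.26 and Nid2, a basement membrane nidogen, at -0.34 ± 0.18, and none passed. TGF-beta and PDGF signalling genes, which drive stellate cell activation and growth, were lower in 12 of 22 (median -0.03). In that list Smad2, a signal transducer of TGF-beta, stood at -0.19 ± 0.08, Pdgfc, a PDGF ligand, at 0.21 ± 0.10 and Smad4 at -0.31 ± 0.17, none passing.

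In control STZ against control sham arrays the medians of the same lists lay between -0.05 and 0.03, where 49.3% of all genes were below 0. Lower means were found for 15 of 25 stellate and fibroblast genes (median -0.04), 10 of 17 smooth muscle and pericyte genes (-0.01), 16 of 31 other matrix glycoproteins (-0.01), 16 of 22 processing genes (-0.05) and 9 of 22 signalling genes (0.03), with 0 passing in each. Cald1 stood at -0.37 ± 0.15, Matn2 at -0.74 ± 0.29, Smad2 at -0.25 ± 0.09 and Igfbp4 at -0.40 ± 0.19 (adjusted p = 0.999 each). In low protein STZ against control STZ arrays, 20 of 25 stellate and fibroblast genes were lower (median -0.11), with Nid1, a nidogen of basement membranes, at -0.64 ± 0.18 (adjusted p = 0.348). Of all genes, 62.3% were below 0 there. Of 17 smooth muscle and pericyte genes, 11 were lower in that contrast (median -0.07), with Rgs5 at -0.62 ± 0.17 (adjusted p = 0.348), and 0 passed in either list. In low protein STZ against low protein sham arrays, 17 of 25 stellate and fibroblast genes were lower (median -0.04), where 57.6% of all genes were below 0. Of these 25, 0 were under an unadjusted p of 0.05, against 2.59% of all genes.

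Markers of other cell types differed in direction in the diet contrast, where 57.7% of all genes were below 0. None of these markers passed. Endothelial markers were lower in 12 of 12 cases in low protein sham against control sham arrays (median -0.24), and their mean signal was 8.34 to 8.52 in low protein sham arrays and 8.68 to 8.72 in control sham arrays. Acinar markers were lower in 7 of 7 (median -0.40), at 14.10 to 14.26 in low protein sham and 14.55 to 14.68 in control sham arrays. Mesothelial markers averaged 8.04 to 8.10 in low protein sham and 8.06 to 8.41 in control sham arrays, adipocyte markers 8.17 to 8.38 and 8.33 to 8.53, and lymphocyte markers 8.45 to 8.46 and 8.33 to 8.50. Of the 5 tested β cell markers 4 were lower (median -1.09), of 9 tested lymphocyte markers 4 were lower and 5 higher (median 0.10), and of 4 tested duct markers 1 was lower and 3 higher (median 0.06). Cd3e, a subunit of the T cell receptor complex, was at 0.27 ± 0.10 (limma adjusted p = 0.367). Within control sham, the mean of the endothelial list was nearly level, at 8.68, 8.68 and 8.72 in replicates 1, 2 and 3. Cd34 of that list was not level, at 8.18, 8.69 and 9.20 in the same order. The mesothelial means were 8.06, 8.17 and 8.41 and the myeloid means 8.32, 8.61 and 8.74 in replicates 1, 2 and 3. The part of these cell types in the differences of Vim, Sparc or Bgn was not tested.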

How the data were processed

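Whole pancreas RNA of 11 mice was measured on Affymetrix mouse arrays. Each probe set's deposited value is a log2 signal. The submitters' processing notes list RMA and Partek 6.5 and do not say what each did. Gene symbols came from the array's annotation at GEO (34958 with 1 symbol, 932 with several, 9211 with none here), and 34754 matched a RefSeq gene by Entrez ID, with no symbol changed. Each of the 18194 genes kept its probe set with the highest mean; the filter removed 2297 genes with a mean no higher than 6.866, which is the 0.25 quantile over probe sets.

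One model with 4 group means covered the other 15897 genes (lmFit and eBayes of limma 3.58.1, two-sided, run in R 4.3.3), with Benjamini-Hochberg adjustment over all of them and a threshold of 0.05. A second fit covered the 34958 probe sets. Intervals are 95% intervals of the fit. The number of arrays limits the precision. The members and lists were chosen with earlier results of these data known. The text names all members, up to 3 genes of each other list with the smallest p, and the 5 genes most like the members' mean. Alternatives were a replicate block, only the groups compared, moderation with trend, array weights, cyclic loess, no filter, every probe set, covariates for RNA integrity and hybridisation controls, and arrays left out. Tables and plots used Python 3.11.15.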

Additional observations from a re-analysis of the deposited data

Results flagged for a closer look

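S100a4 drew attention because STZ arrays lay above all sham arrays in the low protein diet (7.24 to 7.48 against 6.89 to 7.17) and below all sham arrays in the control diet (7.20 to 7.24 against 7.33 to 7.46). The difference of the STZ effects was 0.55 ± 0.14, which did not pass over all genes in limma (adjusted p = 1, range 0.704 to 1 over the alternatives).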

How the results depend on the processing

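Of 1040 values of single genes under the alternatives, 993 kept their direction and side of the threshold, 46 changed sign and 1 passed. Many of the values could not change sign. Leaving out an array of a group outside the contrast left a gene's difference as it was. So did fitting only the groups compared, moderation with trend, no filter and every probe set. These changed only the error and the adjusted p, so the 993 overstate the stability. Of 208 counts and medians, 12 moved, meaning that a count was no longer 0 or a median shifted by more than 0.18, the SD of the 10-gene mean between arrays of a group. Smaller shifts, below that SD, took the control STZ minus control sham median to -0.33 without control sham 1 and -0.08 without control sham 3. For low protein sham minus control sham, 7 genes passed with array weights and 56 without low protein STZ 1 and control sham 1, and 0 to 126 when 1 array was left out (126 without low protein STZ 1, 8 without control sham 3, 3 without control sham 2 and 1 without control sham 1). The median of the 10 genes was -0.08 with the hybridisation controls as a covariate, -0.45 without both arrays and -0.45 to -0.13 with 1 array left out, and Vim was -1.23 without both. The median for low protein STZ minus control STZ was 0.13 with that covariate; its count, and that for control STZ minus control sham, was 0 to 1 with 1 array left out (1 without low protein STZ 3 and 1 without control sham 2). Low protein STZ 1 is in neither group of low protein sham minus control sham, so leaving it out changed only the shared estimate of the spread there. What else lay behind these shifts was not tested.

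The sign of single genes changed as follows. For low protein sham minus control sham, Fn1 was 0.01 with cyclic loess, 0.03 with the RNA integrity covariate and 0.20 with the hybridisation covariate, where Acta2 was 0.01 and Lum 0.06, and Acta2 was 0.06 with RNA integrity. For low protein STZ minus control STZ the hybridisation covariate gave Vim 0.28, Dcn 0.03, Lum 0.31, Fn1 0.29 and Lox 0.07, and cyclic loess gave Lox 0.02. For low protein STZ minus low protein sham, array weights gave Sparc 0.07 and Lox -0.02, and cyclic loess gave Sparc 0.01. For the difference of STZ effects, Dcn was 0.24 and Fn1 0.11 with array weights, 0.05 and 0.08 with the hybridisation covariate, and 0.31 and 0.21 without low protein STZ 1 and control sham 1.

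With 1 array left out, low protein sham minus control sham ran from -0.13 to 0.06 for Acta2, -0.48 to 0.17 for Lum and -0.33 to 0.18 for Fn1. Control STZ minus control sham ran from -0.25 to 0.04 for Acta2, -0.53 to 0.15 for Dcn and -0.35 to 0.15 for Fn1. Low protein STZ minus low protein sham ran from -0.03 to 0.34 for Vim, -0.08 to 0.07 for Pdgfrb, -0.03 to 0.17 for Bgn, -0.24 to 0.11 for Sparc and -0.02 to 0.05 for Lox. Low protein STZ minus control STZ ran from -0.01 to 0.28 for Acta2, -0.26 to 0.13 for Lum and -0.04 to 0.02 for Lox. The difference of STZ effects ran from -0.41 to 0.28 for Dcn, -0.23 to 0.41 for Lum, -0.28 to 0.23 for Fn1 and -0.02 to 0.44 for Sparc.

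The labels do not say whether replicate numbers pair the samples. Deviations of same-numbered arrays correlated at 0.091, 0.176 and 0.123 between the sham groups, and at -0.232 and -0.188 between the STZ groups. Between STZ and sham they correlated at -0.116, 0.027 and 0.181 in the low protein diet and at -0.062 and -0.078 in the control diet. Groups of 2 or 3 arrays are too small for these values to settle pairing. With the replicate block Vim was -0.93 (adjusted p = 0.302) for low protein sham minus control sham, 0 genes passed, and Lum turned to 0.01 for low protein STZ minus control STZ. With 2 control STZ arrays, a fit that left one out took the other to vary like the remaining groups. S100a4, of mean 7.25, has 1 probe set, so no second one could be compared.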
